A study of Mus musculus with 4 samples.

Results

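The Polycomb repressive complex genes were followed in immortalized multipotent otic progenitors (iMOP), a mouse cell line derived from the inner ear, and in neurons made from the same line. The members were chosen by symbol, as 5 genes of Polycomb repressive complex 2 (Ezh1, Ezh2, Eed, Suz12 and Jarid2) and 5 genes of Polycomb repressive complex 1 (Bmi1, Ring1, Rnf2, Cbx2 and Cbx8), and all 10 were found among the 49997 gene symbols of the count tables. The 4 libraries were stranded RNA-seq of total RNA depleted of ribosomal RNA. The 2 proliferating libraries came from wild-type iMOP cells grown in DMEM/F12 with B27, carbenicillin and basic FGF at 20 ng/ml. The 2 neuron libraries came from wild-type iMOP-derived neurons grown in Neurobasal medium with N21, L-glutamine and 1 µM K03861, an inhibitor of the kinase CDK2. The groups therefore differ in medium, growth factor and kinase inhibitor together, and these cannot be told apart. All libraries come from 1 immortalized line, and titles call them biological replicates without saying whether the cultures were separate, so p-values measure the spread between these libraries.

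Polycomb proteins keep developmental genes silent. Complex 2 methylates a lysine of histone H3 through either of the alternative catalytic subunits Ezh2 and Ezh1, with Eed and Suz12 as obligatory partners and Jarid2 as an accessory protein that helps to bring the complex to chromatin. Complex 1 places ubiquitin on another core histone through the paralogous RING ligases Rnf2 and Ring1, in a dimer with a partner such as Bmi1, and its Cbx subunits bind the methyl mark. In many tissues Ezh2 is known to be abundant in dividing progenitors and Ezh1 to be relatively more prominent in cells that have left the cycle, so the balance of the pair is often read during neuronal differentiation.

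The start regions of Ezh2, Suz12 and Ezh1 are printed here because Ezh2 and Ezh1 form the balance described next and Suz12 had the widest gap between the proliferating libraries. Sequences are those of RefSeq on GRCm38.p6, the build called mm10 in the submitters' processing notes. A window was found for 9 of the 10 members, Cbx2 being the exception. Upstream is taken from the RefSeq start. The Ezh2 stretch lies inside the longer bounds of the GENCODE M21 gene, which reach 47595341. The 3 upstream stretches hold no annotated exon of GENCODE M21, the short Ezh2 site overlaps its first exon, and all are written 5′ to 3′ on the strand of the gene. Capitals mark CCAAT (the CCAAT box, or ATTGG on the opposite strand) and the E2F-type words TTTGGCGC, TTTCCCGC, TTTGCCGC and TTTCGCGC, searched on both strands. The windows are chr6:47595059-47595183 (minus strand) for Ezh2 upstream, chr6:47595010-47595037 (minus strand) for the Ezh2 site at its start, chr11:79992856-79993105 (plus strand) for Suz12 and chr11:101226464-101226713 (minus strand) for Ezh1.
Ezh2 upstream: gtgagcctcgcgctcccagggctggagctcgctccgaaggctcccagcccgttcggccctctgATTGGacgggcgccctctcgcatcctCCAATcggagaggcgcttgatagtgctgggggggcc
Ezh2 site at its start: ggttgctgcgTTTGGCGCtcggtccggt
Suz12 upstream: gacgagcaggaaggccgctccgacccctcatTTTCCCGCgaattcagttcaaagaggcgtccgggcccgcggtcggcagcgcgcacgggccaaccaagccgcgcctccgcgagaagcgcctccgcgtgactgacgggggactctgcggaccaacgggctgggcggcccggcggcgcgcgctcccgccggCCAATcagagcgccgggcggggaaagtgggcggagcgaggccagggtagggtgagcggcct
Ezh1 upstream: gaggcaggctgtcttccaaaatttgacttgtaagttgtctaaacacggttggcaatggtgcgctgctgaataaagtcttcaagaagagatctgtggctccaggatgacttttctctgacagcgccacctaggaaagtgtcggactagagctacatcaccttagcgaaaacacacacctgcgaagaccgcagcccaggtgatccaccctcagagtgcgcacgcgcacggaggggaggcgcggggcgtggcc

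In the full windows of 300 bases (250 before and 50 after the start), Ezh2 held 3 CCAAT boxes and 1 E2F-type word, Suz12 held 1 of each, and Ezh1 held neither. Among all 32851 windows, 37.4% held a CCAAT box and 2.26% an E2F-type word. Of the other 6 members with a window, none held an E2F-type word, and Eed, Jarid2 and Cbx8 held a CCAAT box. A match is a description of these letters and not a binding site, and its absence says only that these words are not in the window.

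All positions of the members are those of GENCODE M21 on GRCm38. Ezh2 lies at chr6:47530139-47595341 and Rnf2 at chr1:151458004-151500955, and Bmi1 lies at chr2:18677018-18686629. Eed is at chr7:89954654-89980983, Jarid2 at chr13:44729474-44921643 and Ring1 at chr17:34020792-34024680. Chromosome 11 holds Ezh1 (chr11:101191115-101226463) and Suz12 (chr11:79993106-80034123), and on it Cbx2 (chr11:119022962-119031270) and Cbx8 (chr11:119036305-119040969) are neighbours on opposite strands.

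The total count was 7446361 to 14484011 per library, of which 53.3% to 76.1% fell on the 18S ribosomal RNA row. The 18S share was 53.3% in proliferating and 59.4% in neuron replicate 1, and 75.0% and 76.1% in replicate 2. All other genes were carried by 2595578 to 3850766 counts, the fewest being in proliferating replicate 2. Levels are given as CPM, the count scaled to a common library size adjusted by the trimmed mean of M-values (TMM), for 12783 genes that passed a filter on low counts; all 10 members passed it. The markers did not separate the groups in every respect. The 15 proliferation markers summed to 427 and 163 CPM in progenitors and to 522 and 350 CPM in neurons, and none of them was at 0. Values of a group are given for replicate 1 and then replicate 2 throughout, and the proliferating libraries are called progenitors. The 12 neuron markers summed to 162 and 354 CPM in progenitors and 203 and 369 CPM in neurons. Of the 10 that were tested, 7 had a positive log2 fold change, against 52.0% of all tested genes. None of the 10 was called, and the median was 0.40, beside 0.02 for all. In both replicate pairs (libraries with the same number) 2 were higher in neurons, against 28.8% of all genes. The median difference of the replicate 1 pair was -0.12. The median fold change was -0.78 without neuron replicate 2, 0.70 without neuron replicate 1 and -0.10 by library size alone. Elavl4, a neuronal RNA-binding protein, had 92 and 90 counts in progenitors against 211 and 373 in neurons (unadjusted edgeR p-value 0.031, adjusted p-value 0.9998), and Map2 was also higher in both neuron libraries than in either proliferating one. Tubb3 had 233 and 1430 counts in progenitors against 342 and 1026 in neurons, so its highest value was in a proliferating library. Nefm had 1 count at most in any library, and Gap43 had 0 in both neuron libraries. Of the otic progenitor markers, Sox9 had 496 and 429 counts in progenitors against 320 and 41 in neurons (log2 fold change -1.66, edgeR adjusted p-value 0.9998). Sox2 had 362 and 355 counts in progenitors against 402 and 216 in neurons. Eya1 went the other way from Sox9, with 62 and 27 counts in progenitors against 103 and 57 in neurons (log2 fold change 0.72, edgeR adjusted p-value 0.9998). Pax2 and Pax8 were at 0 in all 4 libraries, and 3 of the 9 otic markers were tested. The 10 glia markers summed to 77.8 and 132.2 CPM in progenitors against 26.7 and 9.99 CPM in neurons, and their part in the results on the members was not tested.

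For the 10 members, the question was whether the Polycomb machinery differs between progenitors and neurons. Of the members, 7 (Ezh2, Suz12, Jarid2, Bmi1, Ring1, Rnf2 and Cbx2) had more CPM in the neuron library of both replicate pairs, a pair being the 2 libraries with the same replicate number. Across all tested genes this held for 28.8%. Of the 15 proliferation markers, 10 were higher in both pairs and 0 were lower in both. The other 3 members (Ezh1, Eed and Cbx8) had opposite signs in the replicate pairs, as did 45.7% of all genes, and 0 members were lower in both pairs, against 25.5% of all genes. In 5 members (Ezh2, Jarid2, Bmi1, Rnf2 and Cbx2) both neuron libraries lay above both proliferating libraries, which 12.9% of all genes did. Of the 15 proliferation markers, 1 did so. These are TMM-adjusted values. Scaled by total count, as in the deposited RPKM, neuron replicate 2 lay below proliferating replicate 1 for each of the 5. For Ezh2 this was 0.550 against 1.26, and for Cbx2 0.549 against 0.558. The replicate 1 pair of Bmi1 also turned, at 2.51 in progenitors and 1.99 in neurons. The median log2 fold change of neurons over proliferating cells was 0.57 over the members and 0.02 over all tested genes. The members' median was 1.00 without proliferating replicate 1, 0.40 without proliferating replicate 2, 0.19 by library size alone and 0.13 on log2(RPKM + 1). By sign 9 of 10 members were positive, against 52.0% of all genes, and 6 were when only library size was used for scaling, which shifts the median of all genes by -0.29.

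None of these differences passed the test. In the edgeR quasi-likelihood test, 0 of the 10 members passed an adjusted p-value of 0.05, and the background was 0.0% of all genes in either direction. Unadjusted p-values were under 0.05 for 0 members, against 0.915% of all genes higher and 2.51% lower in neurons. DESeq2 called 0 members as well, among 12 genes higher and 47 lower in the whole table. With the replicate number as a block, edgeR called 0 genes higher and 3 lower, none of them members, and Suz12 and Jarid2 had unadjusted p-values of 0.026 and 0.031. That fit gave unadjusted p-values under 0.05 to 2.70% of all genes as higher and 3.48% as lower. The library proliferating replicate 2 was the lowest of the 4 for 5 members (Ezh2, Suz12, Jarid2, Bmi1 and Rnf2) and for 37.8% of all genes. That library also had the fewest counts outside the 18S row (2595578), and the part of this in the members' values was not tested. In bulk RNA, fewer cells of a kind and less RNA per cell cannot be told apart.

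**Figure D1:**
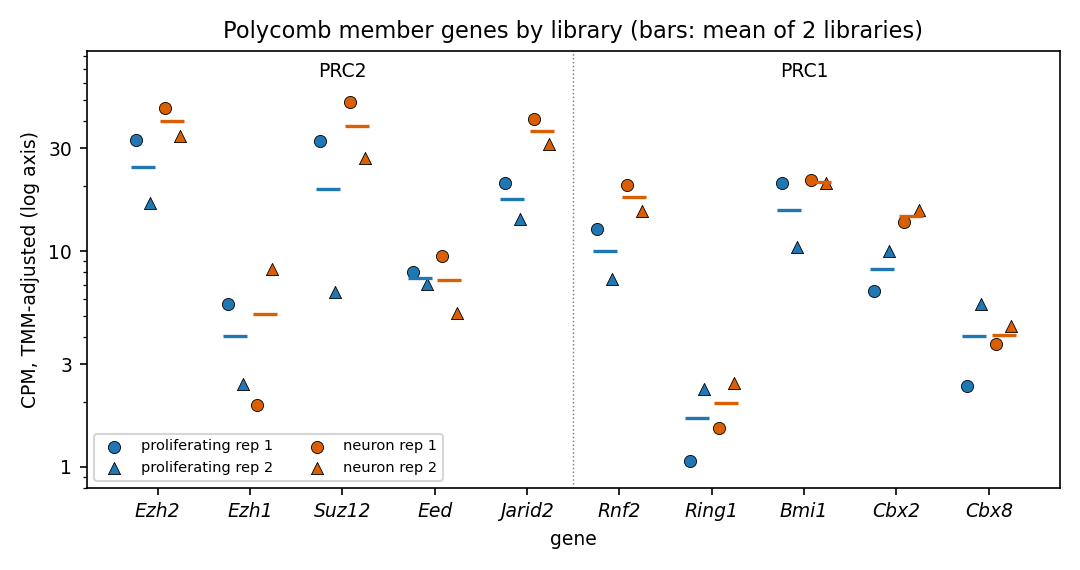
Level of each member in each library, as TMM-adjusted CPM on a log axis; circles are replicate 1, triangles replicate 2, blue the proliferating and orange the neuron libraries, and horizontal bars the mean of 2 libraries. Both orange points lie above both blue points for Ezh2, Jarid2, Rnf2, Bmi1 and Cbx2, while the Ezh1 points are mixed.

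Ezh2, the main methyltransferase of complex 2 in dividing cells, was not lower in the neuron libraries in TMM-adjusted CPM. It had 398 and 123 counts in progenitors, and 550 and 337 in neurons. These are 32.7 and 16.6 CPM against 46.3 and 34.4 CPM. The neuron libraries were both higher, although neuron replicate 2 was close to proliferating replicate 1. The means were 24.7 ± 11.4 CPM in progenitors and 40.3 ± 8.42 CPM in neurons, with SDs over 2 libraries each. The fitted log2 fold change was 0.71 (SE 0.51, edgeR adjusted p-value 0.9998). Its 95% interval ran from -0.49 to 1.90. Without proliferating replicate 2 the log2 fold change was 0.30, and without proliferating replicate 1 it was 1.25.

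The summed proliferation markers were lowest in the same library as Ezh2 and highest in neuron replicate 1, as Ezh2 was. Within that list Mki67, a protein of cycling cells, had 93.1 and 10.96 CPM in progenitors and 118.4 and 46.8 CPM in neurons. In neuron replicate 1, Mki67 and Top2a (218.6 CPM) made up much of the summed 522 CPM. Of the 15 markers, 11 were lowest in proliferating replicate 2, beside 37.8% of all genes. E2f1 and Ccne1 were highest there instead, and E2f1 had 8.13 and 13.9 CPM in progenitors and 8.50 and 9.38 CPM in neurons. The part of these markers in the Ezh2 values was not tested.

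Ezh1, the alternative methyltransferase, had opposite signs in the replicate pairs. It had 69 and 18 counts in progenitors, and 23 and 81 in neurons. In CPM this was 5.67 and 2.44 against 1.93 and 8.26, so the neuron libraries held both the lowest and the highest value. The log2 difference was -1.46 for the replicate 1 pair but 1.68 for replicate 2. The fitted log2 fold change of 0.31 (SE 0.78, edgeR adjusted p-value 0.9998) had an interval of -1.51 to 2.12. Its sign depended on the setting, being -0.44 when scaled by library size alone, -1.08 without neuron replicate 2 and -0.16 without proliferating replicate 2, but 0.97 when neuron replicate 1 was left out.

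The Ezh2 to Ezh1 balance was taken as the ratio of their counts within a library, which needs no scaling between libraries. The ratio was 5.77 in proliferating replicate 1 (95% exact interval 4.46 to 7.56) and 6.83 in proliferating replicate 2 (4.15 to 11.9). It was 23.9 in neuron replicate 1 (15.8 to 38.0) and 4.16 in neuron replicate 2 (3.26 to 5.37). These intervals cover counting error only, since reads without molecular identifiers are not independent molecules. The proliferating libraries thus had like ratios. Neuron replicate 1 lay above them beyond counting error, while the interval of neuron replicate 2 overlapped both of theirs. The neuron libraries differed from each other beyond counting error. On the log2 scale the mean was 2.65 ± 0.17 in progenitors and 3.32 ± 1.78 in neurons (SD, n = 2 each), and the exact two-sided permutation p-value of the difference of 0.67 was 1.0. With 2 libraries against 2 that test cannot give less than 0.3333. Without neuron replicate 1 the difference was -0.59, and without neuron replicate 2 it was 1.93. In both neuron libraries Ezh2 counts exceeded Ezh1 counts.

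How far Ezh2 exceeded Ezh1 depended on the gene length used. In the authors' deposited RPKM (reads per kilobase of gene length, scaled to sequencing depth), the Ezh2 to Ezh1 ratio was 1.15 and 1.36 in progenitors, and 4.75 and 0.826 in neurons. The RPKM values imply a length of 42307 bases for Ezh2 and 8400 for Ezh1. The longest GENCODE M21 transcripts have 2787 and 4207 bases, so the implied Ezh2 length is 15.2 times its longest transcript and that of Ezh1 is 2.00 times. With the longest transcript as the length, the ratio was 8.71 and 10.3 in progenitors and 36.1 and 6.28 in neurons. In neuron replicate 2 the deposited RPKM therefore placed Ezh1 above Ezh2, and the longest transcript placed it below. All annotated exons of GENCODE M21 together cover 6678 bases for Ezh2 and 7440 for Ezh1. The implied lengths of 42307 bases for Ezh2 and 8400 for Ezh1 both exceed that cover, so no annotated transcript of either gene has them. The place of Ezh1 above Ezh2 in RPKM rests on these lengths.

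**Figure D2:**
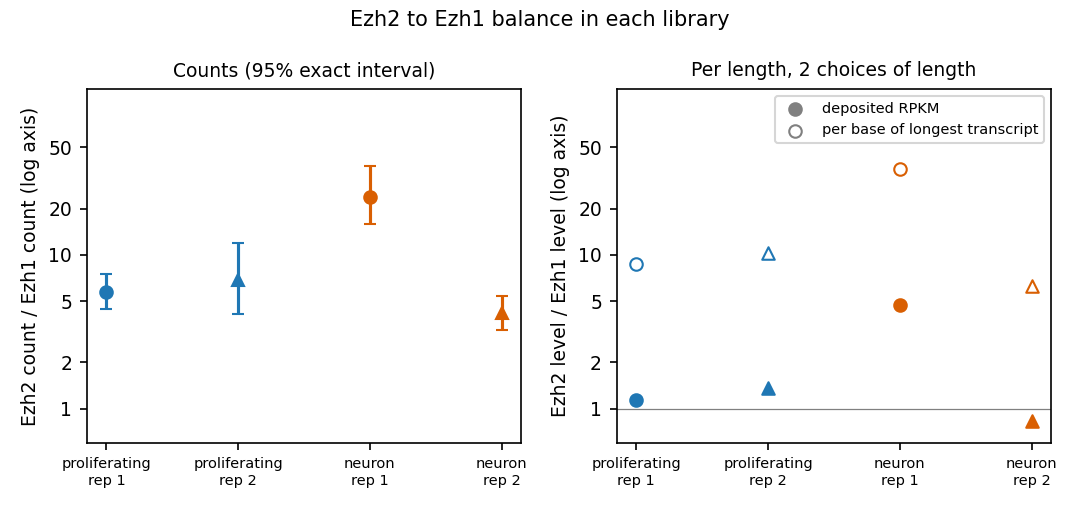
Left, the ratio of Ezh2 to Ezh1 counts in each library with its 95% exact counting interval; right, the ratio per length from the deposited RPKM (filled) and from the longest transcript (open); both axes are logarithmic. Neuron replicate 1 stands at 23.9 and the 3 other libraries between 4.16 and 6.83, and the open points lie above the filled ones in every library.

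Suz12, the scaffold of complex 2, had the widest gap between the proliferating libraries, with 394 counts in replicate 1 and 48 in replicate 2, against 582 and 265 in neurons. In CPM the values were 32.4 and 6.50 in progenitors and 49.0 and 27.0 in neurons. The groups overlapped, because neuron replicate 2 lay below proliferating replicate 1. The log2 fold change was 0.96 with SE 0.75 (edgeR adjusted p-value 0.9998). Leaving out proliferating replicate 2 gave 0.23, and leaving out proliferating replicate 1 gave 2.53. The latter fit has proliferating replicate 2, the lowest library for Suz12, as its only proliferating library.

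Eed, the subunit that reads the methyl mark, had opposite signs in the replicate pairs. It had 97 and 52 counts in progenitors and 113 and 51 in neurons, which is 7.97 and 7.04 CPM against 9.51 and 5.20 CPM. The neuron values enclosed the proliferating ones. Its fitted log2 fold change was -0.03 (SE 0.51, 95% interval -1.23 to 1.17). The opposite-strand gene E230029C05Rik shares 261 exonic bases with Eed and had 2 counts at most in any library.

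Jarid2, the accessory protein of complex 2, had the lowest unadjusted p-value of the members. Its counts were 252 and 104 in progenitors and 488 and 307 in neurons, or 20.7 and 14.1 CPM against 41.0 and 31.3 CPM. Both neuron libraries exceeded both proliferating libraries in CPM. Within the replicate pairs the log2 difference was 0.98 for replicate 1 and 1.14 for replicate 2. Fitted over all 4 libraries, the log2 fold change was 1.05 with SE 0.47, a 95% interval of -0.05 to 2.16, an unadjusted edgeR p-value of 0.059 and an adjusted p-value of 0.9998. Leaving out single libraries kept it between 0.81 and 1.34.

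In complex 1, the RING ligase Rnf2, its principal catalytic subunit, had 154 and 55 counts in progenitors and 241 and 151 in neurons. In CPM these were 12.7 and 7.45 against 20.3 and 15.4, and the groups did not overlap. The log2 fold change was 0.82 (SE 0.51, edgeR adjusted p-value 0.9998), and it was 0.50 with proliferating replicate 2 left out and 1.24 with proliferating replicate 1 left out. An opposite-strand gene, Trmt1l, shares 158 exonic bases with Rnf2, and had 30 to 61 counts. Whether counting used the strand is not stated, so the shared bases could count for either gene.

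Ring1, the paralog of Rnf2, was the member with the fewest counts, 13 and 17 in progenitors and 18 and 24 in neurons. Its levels of 1.07 and 2.30 CPM in progenitors and 1.51 and 2.45 CPM in neurons followed the replicate number more than the group. Its log2 fold change of 0.25 (SE 0.72) was -0.25 without proliferating replicate 1. At 13 counts the exact 95% Poisson interval runs from 6.92 to 22.2 counts. It covers the 18 counts of neuron replicate 1, a library of like adjusted size (11888328 against 12171010). Proliferating replicate 2 had a smaller adjusted size (7387554), so its 17 counts cannot be set against that interval unscaled. The Ring1 to Rnf2 count ratio was 0.0844 and 0.309 in progenitors and 0.0747 and 0.159 in neurons, with an exact two-sided permutation p-value of 0.667. The log2 difference of -0.57 was 0.37 without proliferating replicate 2. Rnf2 counts exceeded Ring1 counts in all 4 libraries.

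Bmi1, a partner of the RING ligases known for holding back the Cdkn2a locus in stem cells, had 251 and 77 counts in progenitors and 253 and 204 in neurons. Its levels were 20.6 and 10.4 CPM in progenitors and 21.3 and 20.8 CPM in neurons, so 3 libraries were alike and proliferating replicate 2 was low. The log2 fold change of 0.43 (SE 0.51) was 0.03 without that library and -0.01 with library size alone. A processed pseudogene, Gm5946, matches the longest Bmi1 transcript at 97.0% identity over 2658 bases. It had 1 to 8 counts, and the treatment of reads that match both is not stated, so the Bmi1 level is uncertain to that extent.

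Of the chromodomain subunits, Cbx2 had 80 and 74 counts in progenitors and 162 and 153 in neurons. Both neuron libraries were higher, at 13.6 and 15.6 CPM against 6.57 and 10.02 CPM, and unlike Ezh2 and Suz12, Cbx2 was not lowest in proliferating replicate 2. The log2 fold change was 0.82 (SE 0.49, edgeR adjusted p-value 0.9998) and stayed between 0.52 and 1.15 when single libraries were left out. Cbx8 had 29 and 42 counts in progenitors and 44 in each neuron replicate, a log2 fold change of 0.04 (SE 0.60) that was -0.05 with library size alone. The Cbx2 to Cbx8 count ratio was 2.76 and 1.76 in progenitors and 3.68 and 3.48 in neurons. The groups did not overlap, and the exact two-sided permutation p-value of 0.3333 is the smallest that 2 libraries against 2 allow. The exact 95% counting intervals of proliferating replicate 1 (1.78 to 4.38) and neuron replicate 1 (2.62 to 5.26) overlapped. Adjusted over the 3 paralog ratios by the Benjamini-Hochberg method, each exact permutation p-value was 1.0.

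**Figure D3:**
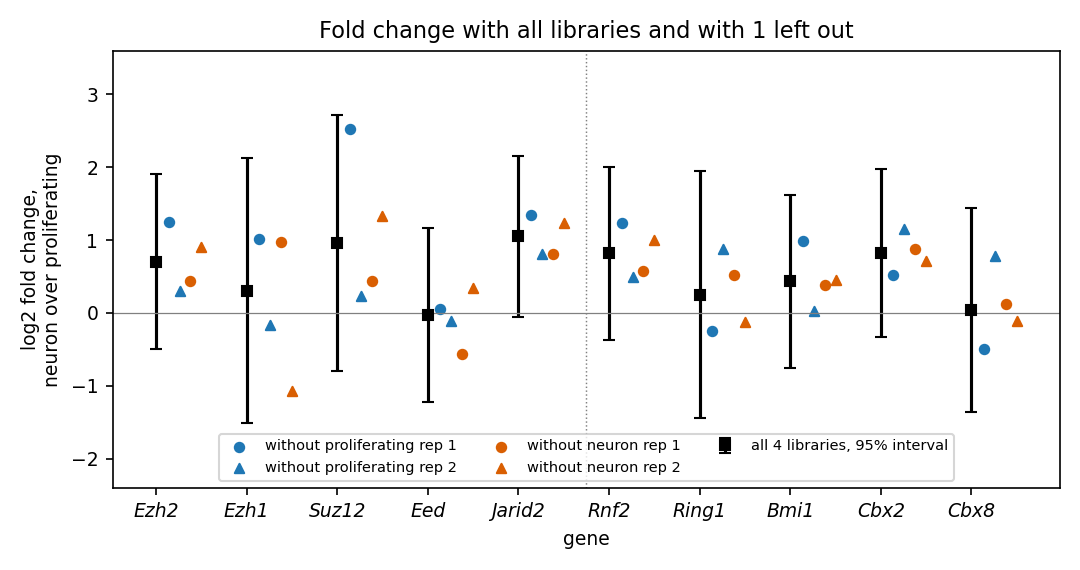
Log2 fold change of each member, neurons over proliferating cells, with all 4 libraries (squares, with the 95% interval from the edgeR fit) and with each library left out in turn (coloured points). All intervals include 0, Suz12 moves from 0.23 to 2.53 depending on which proliferating library is left out, and Jarid2 stays between 0.81 and 1.34.

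Levels of different members can be compared only per length, and here too the length decided the order. With CPM per kilobase of the longest transcript, averaged over the 4 libraries, Ezh2 was first (11.7), followed by Suz12 (6.57), Bmi1 (5.09), Rnf2 (4.36), Eed (3.59), Jarid2 (3.21), Cbx2 (3.01), Cbx8 (1.14), Ezh1 (1.09) and Ring1 (0.718). The order also differed between the groups. Eed was at 3.63 in progenitors, above Rnf2 at 3.14, and at 3.56 in neurons, below Rnf2 at 5.57, Jarid2 at 4.33 and Cbx2 at 3.84. Ezh1 at 1.21 lay above Cbx8 at 1.14 in neurons only. In the deposited RPKM averaged over the 4 libraries, Eed had the highest mean at 4.06 and Ezh2 had rank 5 at 0.866. These ranks rest on the implied lengths. That of Ezh2, 42307 bases, is longer than all its annotated exons together (6678 bases). The same held for every other member except Eed, such as Jarid2 (47934 against 9715 bases) and Cbx2 (19243 against 4257 bases). Eed is the member whose implied length, 2060 bases, is close to its longest transcript of 2067 bases. In neurons alone Suz12 had the higher RPKM, 7.08 and 2.11 against 5.79 and 1.71 for Eed. In both orders over the 4 libraries Ezh1 had rank 9 and Ring1 rank 10. Many of these neighbours do not differ beyond their spread: in progenitors Suz12 was at 4.44 ± 4.18 and Bmi1 at 4.32 ± 2.01 CPM per kilobase (SD, n = 2 each).

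By a fixed rule, the genes most like Ezh2 were those with the smallest root mean square distance of centred log2 CPM over the 4 libraries, among 7295 genes whose mean count reached 50. They were S100pbp (distance 0.031), Apc (0.036) and Enah (0.040). Among the members Rnf2 came closest, at a distance of 0.088 and rank 27, followed by Bmi1 at rank 227 and Jarid2 at rank 299. Suz12 (rank 2831), Eed (2589) and Cbx2 (3130) were far down. The genes most like Ezh1 were Aldh9a1 (0.15), Pcdh17 (0.24) and Fig4 (0.24). Ezh2 stood at rank 3738 in that list. A likeness over 4 libraries describes these libraries only.

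The other subunits of both complexes were taken from a list. Of its 29 genes, 25 were tested, 0 were called in either direction and 0 had an unadjusted p-value under 0.05. There were 13 with a positive and 12 with a negative log2 fold change, and the median was 0.05, beside 0.02 for all tested genes. Higher in both replicate pairs were 7 of the 25, lower in both were 2, and 16 had opposite signs. Over all tested genes these shares were 28.8%, 25.5% and 45.7%. Both neuron libraries lay above both proliferating libraries in 2 of the 25, against 12.9% of all genes. Aebp2, a DNA-binding partner of complex 2, had 33.8 and 14.3 CPM in progenitors and 48.5 and 27.5 CPM in neurons, with proliferating replicate 2 lowest as for Ezh2. Rbbp4, the histone chaperone of the core complex, was highest in that library instead, with 35.2 and 58.2 CPM in progenitors and 44.2 and 42.0 CPM in neurons. In complex 1, Auts2, a neurodevelopmental subunit of complexes with Pcgf3 or Pcgf5, had 30.1 and 39.1 CPM in progenitors and 65.4 and 66.8 CPM in neurons. The groups did not overlap, and its log2 fold change of 0.93 (SE 0.44) had an edgeR adjusted p-value of 0.9998. Cbx7, the Cbx subunit typical of pluripotent cells, had 1 to 4 counts and was not tested.

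Of the 7 genes whose products oppose Polycomb, 3 had a positive and 4 a negative log2 fold change, 0 were called, and the median was -0.02. Kdm6a, a demethylase of the complex 2 mark, had 13.6 and 6.09 CPM in progenitors and 14.2 and 7.54 CPM in neurons, following the replicate number. Its relative Kdm6b had 48.4 and 101.9 CPM in progenitors and 74.4 and 61.6 CPM in neurons, with both extremes in proliferating libraries. Asxl3, a partner of the deubiquitinase Bap1, had 6.98 and 3.25 CPM against 10.01 and 10.3 CPM, without overlap (log2 fold change 0.97, SE 0.54, edgeR adjusted p-value 0.9998). It was the only 1 of the 7 with both neuron libraries above both proliferating libraries, against 12.9% of all genes.

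In the whole table, 12783 of 49997 genes passed the filter, 25859 had at least 1 count, and the rest were at 0 in all 4 libraries. Among classic Polycomb targets, 8 of 41 genes passed the filter, 0 were called, and 29 were at 0 in all 4 libraries. The median log2 fold change of the 8 was 0.47, beside 0.02 for all tested genes, but leaving out proliferating replicate 2 gave 0.08, leaving out neuron replicate 1 gave 0.19, and the values were 0.12 by library size alone and 0.05 on log2(RPKM + 1). The 10 Hoxb, 9 Hoxc and 9 Hoxd genes were all at 0, which allows up to 3 counts each per library. In the Hoxa cluster 9 of 11 genes had at least 10 counts in all, and the cluster summed to 148 and 64 counts in progenitors and 222 and 133 in neurons. In TMM-adjusted CPM this was 12.2 and 8.66 against 18.7 and 13.6, so both neuron libraries were higher on that scale. By total count alone this does not hold. Neuron replicate 2 had fewer Hoxa counts than proliferating replicate 1 (133 against 148) from a larger total (14484011 against 7446361). Hoxa9, a posterior member, had 0 counts in both proliferating libraries and 8 and 5 in neurons. Hoxa7 had 3 and 0 counts in progenitors and 17 and 11 in neurons, a ratio of 8.41 with a 95% counting interval of 2.60 to 43.2. Neither gene passed the filter, so neither has a test across libraries, and the interval covers counting error only.

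Cdkn2a, which encodes cell cycle inhibitors and is a textbook target of Bmi1, was detected in all 4 libraries, with 9.45 and 10.96 CPM in progenitors and 8.66 and 11.01 CPM in neurons. Its log2 fold change was -0.05 (SE 0.47). Cdkn2b, its neighbour, had 10 to 19 counts.

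**Figure D4:**
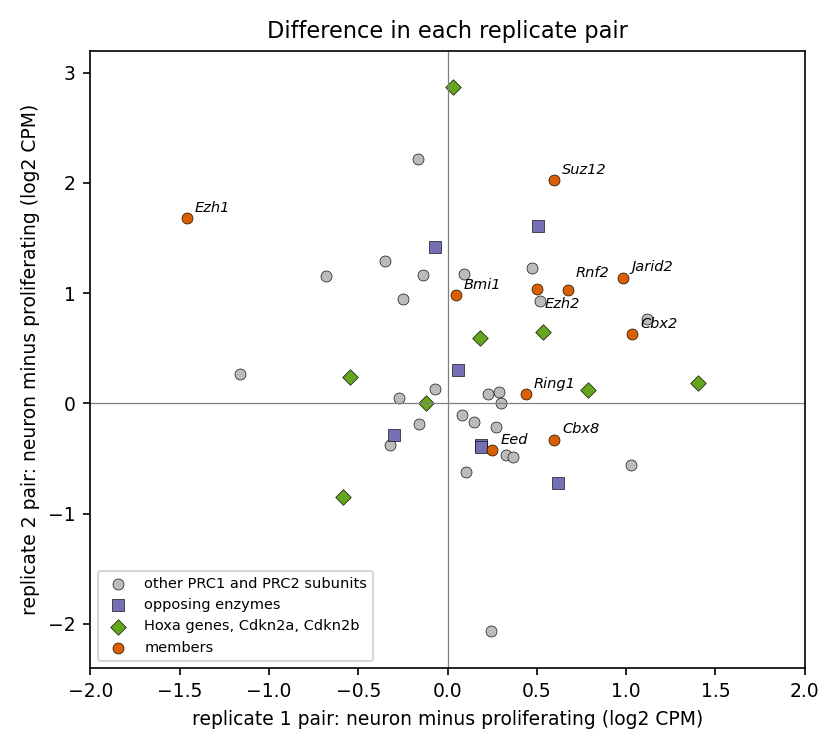
Difference in log2 CPM, neuron minus proliferating, in the replicate 1 pair (x axis) and the replicate 2 pair (y axis) for each tested Polycomb gene; orange points are the members, grey other subunits, purple squares opposing enzymes and green diamonds target genes. Of the members, 7 lie in the upper right part, and Ezh1 lies far to the upper left at -1.46 and 1.68.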

How the data were processed

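The members and gene lists were chosen with earlier results of these data known. The authors deposited raw counts per gene symbol and RPKM for each of the 4 libraries. Per the submitters' processing notes, HISAT2, SAMtools, featureCounts, DESeq2, deepTools 3.4.3 and the build mm10 were used; their settings, the annotation and the use of strand are not given in the sources used here. The deposited RPKM equals the count divided by the library's total count and by 1 length per gene: implied lengths agreed within 0.1% across libraries for 15452 of 15452 genes with counts in all 4.

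Per the labels, rRNA was depleted from 500 ng of RNA and paired reads of 150 bases were sequenced. Groups and replicate numbers came from titles. The main test was edgeR 4.0.16 (R 4.3.3) on the counts of the whole table: TMM, filterByExpr (minimum count 10, total 15), estimateDisp, then glmQLFit and glmQLFTest on a model of group, two-sided, Benjamini-Hochberg adjusted over 12783 genes. SE is the log2 fold change divided by the root of F, and intervals use its t quantiles. Pair differences use log2 CPM with a prior count of 2. The code was tested on simulated data. Alternatives were RLE factors, library size alone, DESeq2 1.42.0, other filters, limma 3.58.1 on log2 RPKM, the 18S row left out, the replicate block and each library left out. Titles of both replicate 2 libraries name the same set, without saying what a set is, and numbers were taken as pairs; deviations of same-numbered libraries correlated at r = 0.33 over 12783 genes. Named genes were the members, any gene of the lists, and the 3 genes nearest to Ezh2 and to Ezh1. Lists were described by counts and medians, with no set test. Marker lists not described in the text had summed levels of 8.05 to 17.9 CPM (fibroblast and mesenchyme) and 0.0841 to 9.68 CPM (hair cell).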

Additional observations from a re-analysis of the deposited data

How the results depend on the processing

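With 2 libraries per group, fold changes between replicates often exceeded those between groups, and low counts widen the counting intervals of Ring1 and Cbx8. Ezh1 replicates differed beyond their counting intervals. Ezh2, Suz12, Jarid2, Rnf2 and Cbx2 kept a positive log2 fold change and no adjusted call under the 13 settings tried; their sizes did not. Library size alone moved the overall median by -0.29 and turned Ezh1 (-0.44), Bmi1 (-0.013) and Cbx8 (-0.051). RPKM with pseudocount 1 turned Ezh1 (-0.12) and Cbx8 (-0.026), and with 0.1 Ezh1 (-0.15) and Cbx8 (-0.067). Eed was 0.0049 without a gene filter. Leaving out single libraries gave -1.08 to 1.01 for Ezh1, -0.57 to 0.34 for Eed, -0.25 to 0.88 for Ring1 and -0.50 to 0.78 for Cbx8, -0.59 to 1.93 for the log2 Ezh2 to Ezh1 ratio and -1.50 to 0.37 for Ring1 to Rnf2. A group then holds 1 library, assumed to vary like the others. The cause of these changes was not tested.

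The main fit called 0 genes in each direction. DESeq2 gave 12 higher and 47 lower (248 genes had no adjusted p-value); no filter gave 41 higher and 122 lower; library size alone and log2(RPKM + 0.1) gave 2 lower each and log2(RPKM + 1) gave 1 lower. Leaving out single libraries gave 1 to 37 higher and 9 to 90 lower. The replicate block gave 0 higher and 3 lower; it left the paired Ezh2 to Ezh1 difference at 0.67, by construction, and changed no other call. A CPM filter left the tested genes as they were. With the longest transcript in place of the RPKM length, the mean Ezh2 to Ezh1 level went from 1.25 to 9.51 in proliferating cells and from 2.79 to 21.2 in neurons.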
